A study of Homo sapiens with 36 samples.

Results

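The miR-130/miR-301/miR-454 and miR-148/miR-152 families were followed through senescence of WI-38 cells, which are normal human diploid lung fibroblasts. The members were taken by name, with earlier results of these data known. The first family gave hsa-miR-130a-3p, hsa-miR-130b-3p, hsa-miR-301a-3p and hsa-miR-454-3p, and the second hsa-miR-148a-3p, hsa-miR-148b-3p and hsa-miR-152-3p. The last member is hsa-miR-130b-5p, the other strand of the miR-130b hairpin. The members are 8 of the 1508 miRNAs listed in 36 small RNA libraries, 2 biological replicates for each of 18 conditions. The untreated young proliferating cells are called Ctrl. Plasma membrane damage-dependent senescence (PMD-Sen) was induced by exposing proliferating cells to 0.0095% SDS, a detergent, for 24 hours, and the form that depends on the DNA damage response (DDR-Sen) by the same time in 250 nM doxorubicin (DXR), a topoisomerase poison. Both were sampled at 8 points named by the day after that exposure: D0 at its end, then daily to D4, and at D6, D8 and D16. Cells in replicative senescence (RS) had been passaged to population doubling level 54 to 56. All groups share the 1 cell line, and Ctrl was sampled at 1 point only. Days in culture therefore cannot be told apart from senescence in any comparison with Ctrl or between days of a series.

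A miRNA guides the Argonaute protein to messenger RNAs that pair with its seed, the bases 2 to 8 from its 5′ end, and those messages are repressed. miRNAs with the same seed form a family that can act on overlapping sets of messages. The miR-148/miR-152 family is known for repressing DNMT1, the maintenance DNA methyltransferase, and the miR-130/miR-301/miR-454 family for repressing the TGF-β type II receptor. A hairpin gives 2 strands, named 5p and 3p, and the more abundant one is usually the guide.

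The mature sequences are shown because the families are defined by them and because the seeds overlap. They were found for 7 of the 8 members, all but miR-130a-3p, and come from RefSeq (GRCh38.p14). All are written 5′ to 3′ with the seed in capitals.
hsa-miR-130b-3p: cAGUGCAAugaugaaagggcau
hsa-miR-301a-3p: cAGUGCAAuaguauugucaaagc
hsa-miR-454-3p: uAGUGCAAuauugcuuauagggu
hsa-miR-148a-3p: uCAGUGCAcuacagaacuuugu
hsa-miR-148b-3p: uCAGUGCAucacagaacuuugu
hsa-miR-152-3p: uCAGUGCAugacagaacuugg
hsa-miR-130b-5p: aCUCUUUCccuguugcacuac

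The first 3 share the seed AGUGCAA, the next 3 the seed CAGUGCA, and the 5p strand of miR-130b has a seed of its own, CUCUUUC. The 7-base run cagugca begins at base 1 of miR-130b-3p and at base 2 of miR-148b-3p, so the second seed is the first one moved by 1 base. Among 2370 mature human miRNAs of the same table, 6 carried AGUGCAA, 3 carried CAGUGCA and 1 carried CUCUUUC. miR-130a-3p had no entry there, so it is not among the 6. Outside the seed the families differ in how alike their members are. Compared base by base from the 5′ end, miR-148a-3p and miR-148b-3p matched at 20 of 22 positions (C9U and U10C, from the first to the second), and miR-148b-3p and miR-152-3p at 19 of 21 (C10G and U20G), whereas miR-130b-3p and miR-454-3p matched at 10 of 22. Reads of the miR-148/miR-152 members are therefore told apart by 2 or 3 bases only, and how the counting treated reads with a mismatch is not given in the sources used here.

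The members are spread over several chromosomes. In GRCh38, MIR454 (chr17:59137758-59137872) and MIR301A (chr17:59151136-59151221) lie on the minus strand, 13263 bases apart, both in introns of SKA2, a gene of the mitotic spindle. MIR130B (chr22:21653304-21653385) lies on the plus strand 245 bases after MIR301B and overlaps exons of a long non-coding RNA. MIR130A (chr11:57641198-57641286, plus strand) lies within its host transcript MIR130AHG and overlaps none of its exons. MIR148B (chr12:54337216-54337314, plus strand) lies in an intron of COPZ1 and MIR152 (chr17:48037161-48037247, minus strand) in an intron of COPZ2, which code for paralogous coatomer subunits. MIR148A (chr7:25949919-25949986, minus strand) lies in a long non-coding RNA gene, outside its exons.

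The libraries held 81670 to 1933442 counts (median 376989.5), and the shallowest were both PMD-Sen D0 libraries and the deepest was replicate 1 of PMD-Sen D16. Fibroblast miRNAs summed to 51040 to 130100 counts per 1000000 (CPM) per library, and the 3 listed of 5 blood markers to between 0 and 12.6 CPM. Epithelial markers (5) summed to 14.6 to 163 CPM, muscle markers (3) to 0 to 41.9 and neural markers (2) to 0 to 17.6. The liver marker miR-122-5p ran from 6.44 to 264 CPM, a range like that of the rarer tested members. The endothelial marker miR-126-3p ran from 18.4 to 192 CPM and was itself higher at D16 and in RS, as given below. The part of these markers in the results was not tested. Of the 8 members, 6 had enough counts to be tested, among 360 miRNAs in all.

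The level of the members spanned a wide range. miR-152-3p was the most abundant, with a median of 1028 CPM (655.7 to 1575 over 36 libraries), followed by miR-148b-3p with 411 (147 to 771), miR-454-3p with 322.5 (145 to 466), miR-130b-5p with 231.5 (86.9 to 329), miR-130b-3p with 94.2 (46.0 to 231) and miR-130a-3p with 61.4 CPM (27.6 to 206). The remaining members were rare. miR-148a-3p was counted 86 times over all libraries, with 0 counts in 11 of them and at most 11 in 1. miR-301a-3p was counted 75 times, with 0 counts in 13 libraries and at most 12. A count of 0 allows up to 3 counts, which is 5.54 to 13.7 CPM for miR-148a-3p and 4.75 to 33.4 CPM for miR-301a-3p in those libraries, so no change of either could be seen at this depth.

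**Figure D1:**
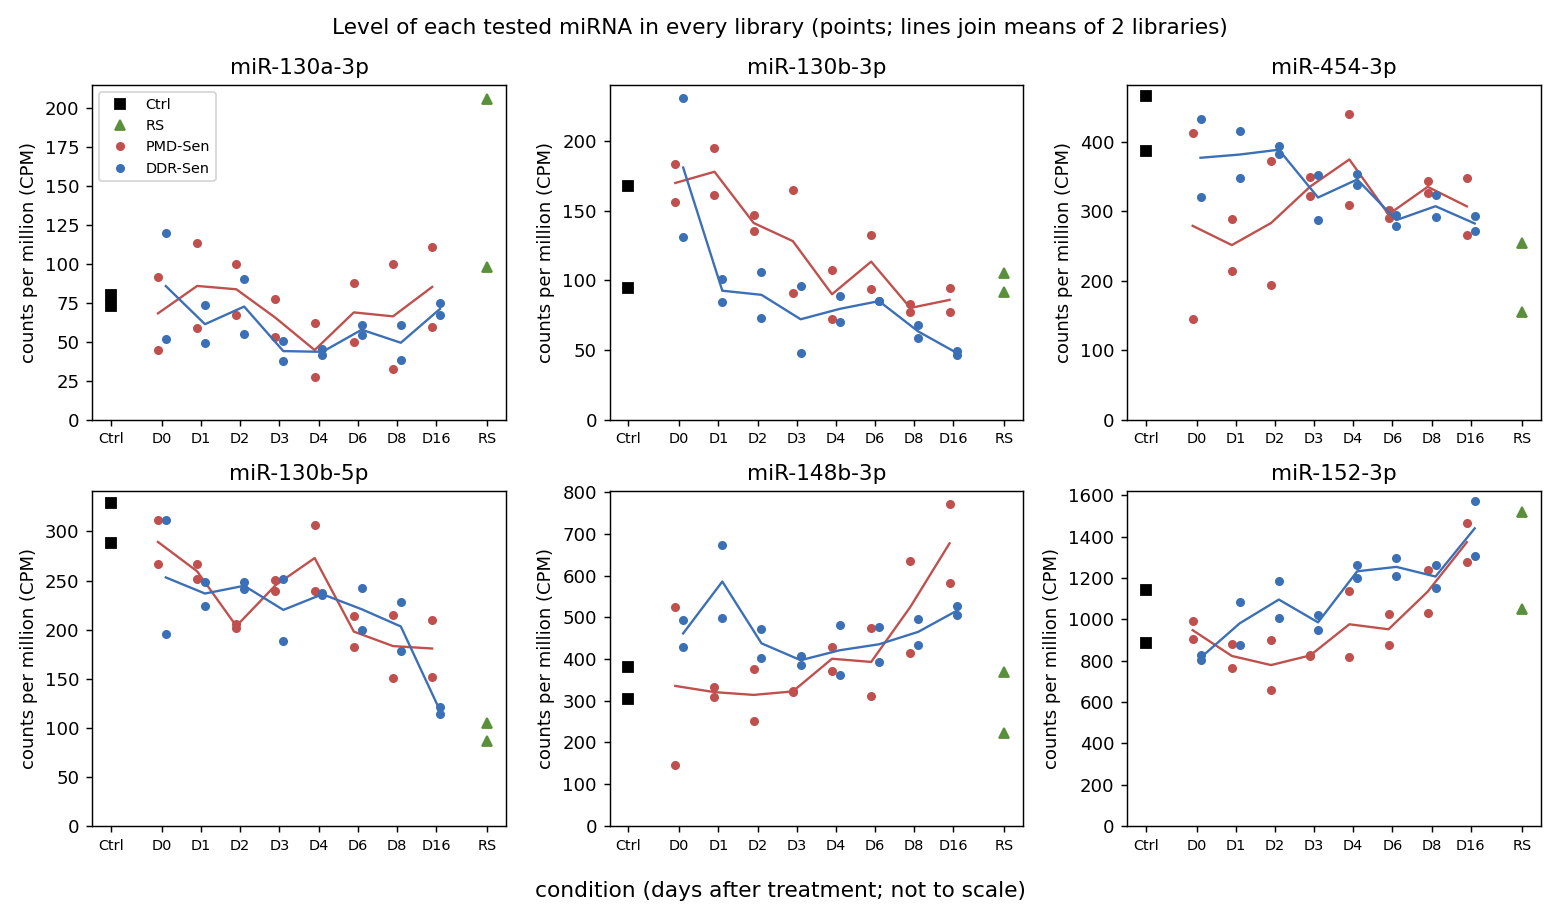
CPM of the 6 tested members (one panel each, linear axis from 0) in every library, with conditions in time order and Ctrl and RS at either end. Points are libraries and lines join the means of 2 replicates. miR-152-3p is at its highest at D16 of both series and miR-148b-3p at D16 of PMD-Sen, miR-130b-5p is at its lowest in RS and at D16 of DDR-Sen, and miR-130a-3p stands highest in 1 RS library at 206 CPM.

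The course within each series was examined first. Late cells (D8 and D16) were compared with early cells (D1 and D2), 4 libraries each, so this comparison does not use Ctrl. Late cells had also been longer in culture, which this comparison cannot tell apart from senescence. In PMD-Sen both tested members of the miR-148/miR-152 family rose and miR-130b-3p fell. These are 3 of 6 tested members, where 30.8% of all tested miRNAs passed. For all 3 the late and early libraries did not overlap, but the share of all tested miRNAs without overlap was not counted. In DDR-Sen 1 of 6 passed, miR-130b-5p, where 17.5% of all tested miRNAs did.

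miR-148b-3p measured 333 and 308 CPM at D1 of PMD-Sen and 376 and 252 at D2, against 636 and 414 CPM at D8 and 771 and 583 at D16. All 4 late libraries were above all 4 early ones. The log2 fold change was 0.91 (SE 0.23). The quasi-likelihood test of edgeR gave an adjusted p of 0.00365, by the Benjamini-Hochberg method over the 360 miRNAs. miR-152-3p, the other abundant DNMT1 repressor of the family, went from 879 and 767 CPM at D1 and 902 and 656 at D2 to 1240 and 1029 at D8 and 1469 and 1279 at D16. Again no late library reached down to the early ones, and the log2 fold change was 0.64 (SE 0.15, adjusted p = 0.00184).

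miR-130b-3p moved the other way. It measured 161 and 195 CPM at D1 of PMD-Sen and 135 and 147 at D2, then 77.5 and 82.9 at D8 and 77.3 and 94.7 at D16. The log2 fold change of -0.93 (SE 0.26), or a fold of 0.524, had an adjusted p of 0.00674. The other members of PMD-Sen did not pass: miR-454-3p had a log2 fold change of 0.25 (SE 0.225), miR-130a-3p of -0.15 (SE 0.37) and miR-130b-5p of -0.33 (SE 0.19). The 3 calls held when any 1 of the 8 libraries was left out. The call of miR-130b-3p was lost with no filter on low counts (adjusted p = 0.108) and when libraries were thinned to the smallest total (adjusted p = 0.133), and none of the 3 reached the fold change of 2 that the study required.

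In DDR-Sen, miR-130b-5p measured 249 and 225 CPM at D1 and 241 and 248 at D2, then 178 and 228 at D8 and 114 and 121 at D16. One D8 library lay within the early range, and the other late libraries lay below it. The log2 fold change was -0.64 (SE 0.19, adjusted p = 0.0171). It was -0.52 (adjusted p = 0.134) without replicate 1 of D8 and -0.60 (adjusted p = 0.0754) without replicate 1 of D16. The call was also lost with no filter (adjusted p = 0.156) and with thinning (adjusted p = 0.312).

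The others in DDR-Sen did not pass. miR-130b-3p had a log2 fold change of -0.72 (SE 0.27, adjusted p = 0.0658), with late libraries at 46.0 to 67.9 CPM and early ones at 72.9 to 106, which did not overlap. miR-454-3p had -0.39 (SE 0.22), also with no overlap (272 to 323 against 348 to 416 CPM). The share of all tested miRNAs without overlap was not counted in DDR-Sen either. miR-152-3p had 0.35 (SE 0.15, adjusted p = 0.103), miR-148b-3p -0.05 (SE 0.23) and miR-130a-3p -0.15 (SE 0.37). With the wider windows D6 to D16 against D0 to D2, an alternative added after the data were seen, miR-130b-3p (-0.84, adjusted p = 0.00424) and miR-152-3p (0.44, adjusted p = 0.00726) passed in DDR-Sen too. miR-130b-3p also passed with only the compared libraries (adjusted p = 0.0300), and miR-152-3p with total counts as the scaling (adjusted p = 0.0261).

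**Figure D2:**
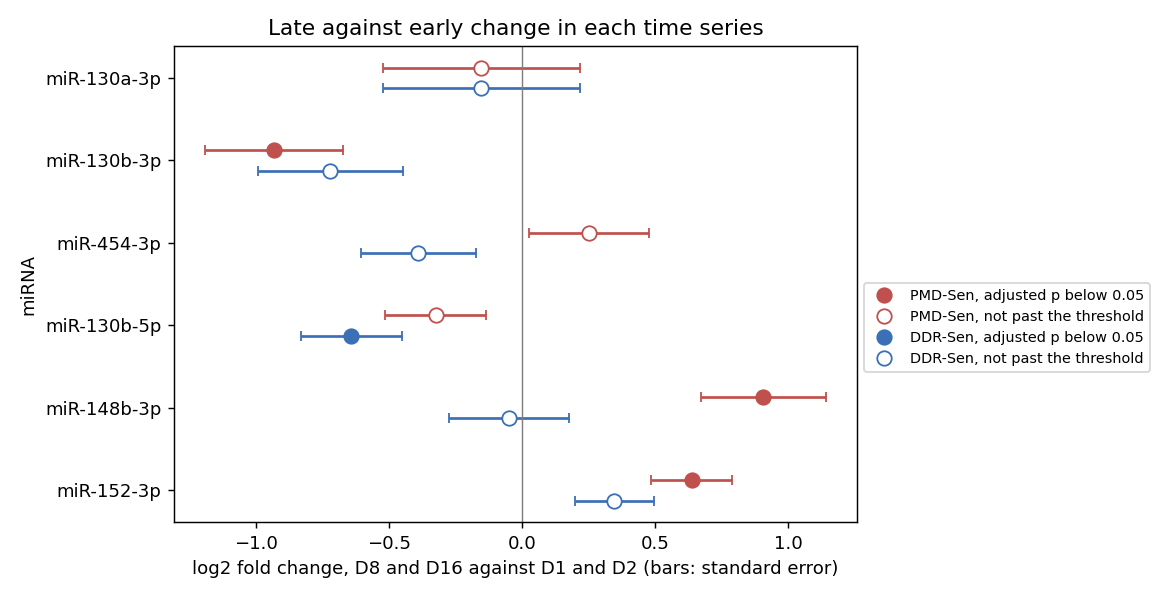
Log2 fold change of D8 and D16 against D1 and D2 (x axis, bars are standard errors) for each tested member in PMD-Sen (red) and DDR-Sen (blue), with filled points where the adjusted p was below 0.05. miR-148b-3p stands at 0.91 in PMD-Sen and at -0.05 in DDR-Sen, while miR-130b-3p lies below 0 in both series.

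Whether the course itself differed between the inducers was tested as the difference of these changes. In edgeR 0 of 6 members passed, beside 9.17% of all tested miRNAs. Without adjustment 2 passed in edgeR, miR-148b-3p and miR-454-3p, and the Wald test of DESeq2 passed miR-148b-3p. The largest difference among the 6 was that of miR-148b-3p, 0.95 on the log2 scale (SE 0.33, adjusted p = 0.0605 in edgeR). With DESeq2 it was 0.97 (adjusted p = 0.0292), and in edgeR it passed with no filter (adjusted p = 0.0178) and with only the compared libraries (adjusted p = 0.0334). The edgeR call was gained when 1 of 6 libraries was left out, with values from 0.99 to 1.16 and adjusted p of 0.0318 to 0.0494. Those libraries were PMD-Sen D1 replicate 1, D2 replicate 1, D8 replicate 2 and D16 replicate 2, and DDR-Sen D1 replicate 2 and D2 replicate 2. For miR-454-3p the difference was 0.64 (adjusted p = 0.182), and 0.93 (adjusted p = 0.0438) without PMD-Sen D2 replicate 1.

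Averaged over D1 to D16, the inducers differed in 2 members, miR-130b-3p and miR-152-3p, of 6 tested, where 20% of all tested miRNAs differed. The 14 PMD-Sen libraries had miR-130b-3p at 72.3 to 195 CPM with a median of 101, and the 14 DDR-Sen libraries at 46.0 to 106 with a median of 78.6. The PMD-Sen mean was the higher on each of the 7 days, although the ranges overlapped. The log2 difference, PMD-Sen over DDR-Sen, was 0.61 (SE 0.14, adjusted p = 0.00188). The call held without any 1 library and was lost with thinning (adjusted p = 0.0721). miR-152-3p was lower in PMD-Sen, at 656 to 1469 CPM with a median of 890, than in DDR-Sen, at 877 to 1575 with a median of 1193. The DDR-Sen mean was the higher on each of the 7 days, and the log2 difference was -0.27 (SE 0.08) with an adjusted p of 0.0140. That call was lost without PMD-Sen D8 replicate 2 (-0.23, adjusted p = 0.0569), with total counts in place of the scaling used (-0.10, adjusted p = 0.308), with no filter (adjusted p = 0.206) and with thinning (adjusted p = 0.0965). The mean of miR-130a-3p was also higher in PMD-Sen on each of the 7 days, yet it did not pass (edgeR adjusted p = 0.276). At D16 alone none of the 6 passed in edgeR or DESeq2, where 0.556% of all tested miRNAs passed in edgeR. miR-130b-5p (0.64, adjusted p = 0.364) and miR-130b-3p (0.83, adjusted p = 0.442), both nominally higher in PMD-Sen, had an unadjusted p under 0.05.

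Against Ctrl, the members were followed condition by condition. Each of these comparisons uses the same 2 Ctrl libraries, so the comparisons are not independent of each other. In none of them was the share of all tested miRNAs without overlap with Ctrl counted. From D0 to D8 no member passed in either series in the edgeR model over all 36 libraries, in 42 tests each, where 3.69% of all tests passed in PMD-Sen and 4.8% in DDR-Sen. In each series 4 of those 42 had an unadjusted p under 0.05 and 1 passed in DESeq2, namely miR-130b-5p at PMD-Sen D8 (-0.72, adjusted p = 0.0462) and miR-130b-3p at DDR-Sen D8 (-1.11, adjusted p = 0.0460). In this edgeR model the calls against Ctrl were at D16 or in RS. With edgeR on only the compared libraries, 4 earlier tests passed as well, miR-148b-3p at PMD-Sen D8 (0.72, adjusted p = 0.0212), miR-454-3p at DDR-Sen D6 (-0.66, adjusted p = 0.0406), and miR-130b-5p (-0.62, adjusted p = 0.0478) and miR-130b-3p (-1.02, adjusted p = 0.0198) at DDR-Sen D8.

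Of the members tested against Ctrl, 2 of 6 passed at D16 of PMD-Sen, beside 16.7% of all tested miRNAs, 2 of 6 at D16 of DDR-Sen, beside 23.1%, and 2 of 6 in RS, beside 22.5%. Over the 8 time points in all, 2 of 48 member tests passed in PMD-Sen, beside 5.31% of all tests, and 2 of 48 in DDR-Sen, beside 7.08%. With 6 members these shares are too few to set apart from the background. By the thresholds used in the study, an unadjusted p under 0.05 with a fold change above 2, no member passed in PMD-Sen and 3 tests of 48 passed in DDR-Sen, where 8.44% and 9.83% of all tests did.

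miR-130b-5p was lower in RS and at D16 of DDR-Sen, and by a smaller margin at D16 of PMD-Sen. It measured 288 and 329 CPM in Ctrl. In RS it measured 105 and 86.9 CPM, a log2 fold change of -1.69 (SE 0.28, adjusted p = 2.99e-05) and a fold of 0.309. At D16 of DDR-Sen it measured 114 and 121 CPM (-1.39, SE 0.27, adjusted p = 0.00044). Neither group overlapped Ctrl, and both calls held without any 1 library. At D16 of PMD-Sen it measured 210 and 151.9 CPM (-0.76, SE 0.26, adjusted p = 0.0438). This last call was lost without any of the 4 libraries, with adjusted p of 0.0955 without Ctrl replicate 1, 0.217 without Ctrl replicate 2, 0.0555 without D16 replicate 1 and 0.243 without D16 replicate 2. It was lost, too, with no filter (adjusted p = 0.523), with only the compared libraries (0.0508) and with thinning (0.231).

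miR-130b-3p, from the same hairpin, was lower than Ctrl at D16 of DDR-Sen, where it measured 49.3 and 46.0 CPM against 168 and 94.4 in Ctrl. The log2 fold change was -1.43 (SE 0.39, adjusted p = 0.00791). The Ctrl libraries lay far apart, and the change was -0.99 (adjusted p = 0.141) without Ctrl replicate 1. The adjusted p was 0.0503 without D16 replicate 1, 0.0734 without D16 replicate 2, 0.0612 with no filter and 0.0856 with thinning. At D16 of PMD-Sen it measured 77.3 and 94.7 CPM (-0.60, SE 0.36, adjusted p = 0.245), and in RS 105 and 91.8 CPM (-0.39, SE 0.37), which did not pass.

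The strands of miR-130b can be compared within each library. The log2 ratio of 5p to 3p counts was 0.77 and 1.79 in Ctrl, and over all libraries it ran from -0.24 to 2.06 with a median of 1.20. In RS it was 0.00 and -0.08, so the strands were about equally counted there. Replicates of 1 condition also lay far apart, at 1.24 and -0.24 in DDR-Sen D0, and the ratio was not tested.

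miR-454-3p was lower in RS, at 155 and 254 CPM against 387 and 466 in Ctrl. The log2 fold change was -1.05 (SE 0.31, adjusted p = 0.0146). It was -0.91 (adjusted p = 0.130) without Ctrl replicate 2 and -0.75 (adjusted p = 0.142) without RS replicate 1, and the adjusted p was 0.061 with no filter, 0.109 with only the compared libraries and 0.097 with thinning. miR-301a-3p, which shares the SKA2 introns with it, had 3 and 12 counts in RS and 0 and 1 in Ctrl, too few to compare. At D16, miR-454-3p measured 348 and 266 CPM in PMD-Sen (-0.47, adjusted p = 0.280) and 293 and 272 in DDR-Sen (-0.60, adjusted p = 0.169).

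miR-130a-3p passed in none of the 17 comparisons with Ctrl. Its highest condition was RS, with 97.8 and 206 CPM against 73.0 and 80.1 in Ctrl, a log2 fold change of 1.00 (SE 0.51, adjusted p = 0.158). Both RS libraries lay above both Ctrl libraries, yet the higher RS library was also far above the other. Without RS replicate 2 the log2 fold change was 0.21, and without RS replicate 1 it was 1.42. It rested on 17 and 28 counts in Ctrl, and its SE of 0.51 was the largest of the 6 members in RS.

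miR-148b-3p was higher than Ctrl at D16 of PMD-Sen, with 771 and 583 CPM against 305 and 380. The log2 fold change was 0.98 (SE 0.33, adjusted p = 0.0361). It was 0.84 (adjusted p = 0.193) without Ctrl replicate 1, 1.16 (adjusted p = 0.111) without Ctrl replicate 2 and 0.76 (adjusted p = 0.251) without D16 replicate 1, the deepest library. The adjusted p was between 0.0573 and 0.160 with DESeq2 size factors, total counts, a minimum mean of 10 counts or thinning. At D16 of DDR-Sen it measured 505 and 528 CPM (0.59, SE 0.33, adjusted p = 0.206), and in RS 222 and 369 (-0.21, SE 0.33). miR-152-3p measured 1469 and 1279 CPM at D16 of PMD-Sen (0.44, adjusted p = 0.146), 1306 and 1575 at D16 of DDR-Sen (0.50, adjusted p = 0.0873) and 1050 and 1518 in RS (0.34), against 885 and 1144 in Ctrl. None of these 3 passed. The D16 libraries of both series lay above the Ctrl libraries, and the share of all tested miRNAs that did so was not counted.

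**Figure D3:**
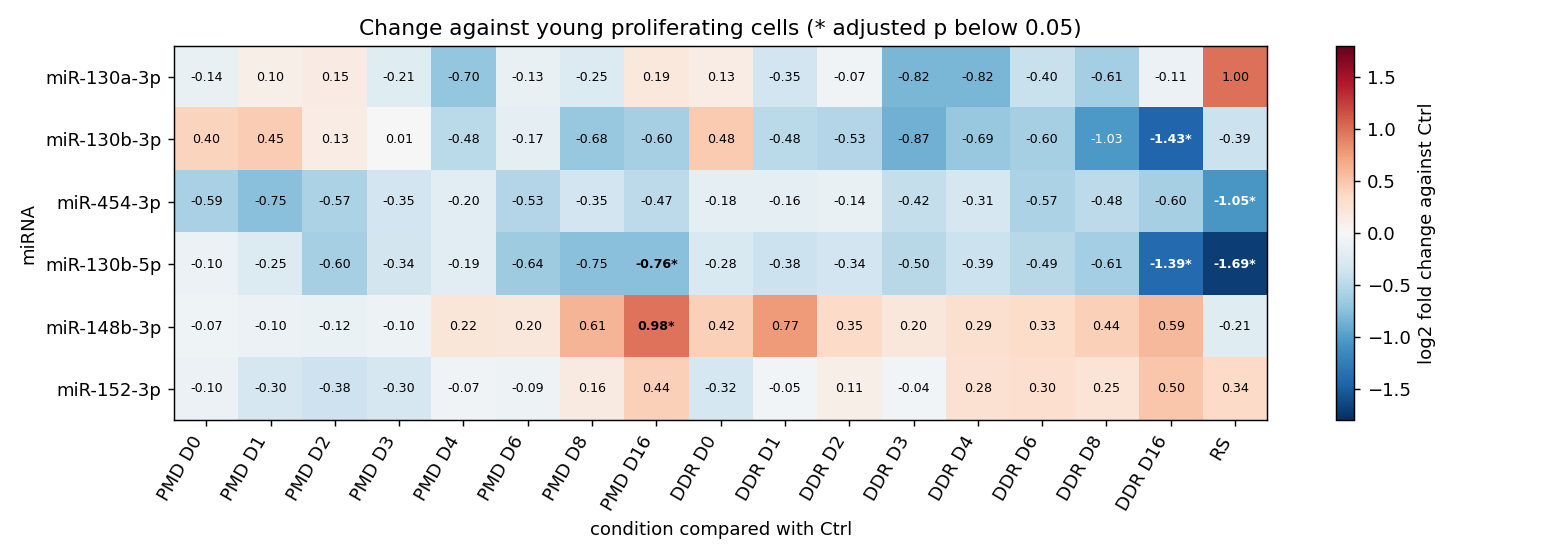
Log2 fold change against Ctrl (colour and printed value) of the 6 tested members in the 16 time points and RS, with an asterisk and bold type where the adjusted p was below 0.05. The marked cells are, at D16 of PMD-Sen, miR-148b-3p (0.98) and miR-130b-5p (-0.76), at D16 of DDR-Sen, miR-130b-3p (-1.43) and miR-130b-5p (-1.39), and, in RS, miR-454-3p (-1.05) and miR-130b-5p (-1.69).

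Ordered by mean level over the 18 conditions, miR-130b-5p ran from 308 CPM in Ctrl down to 96.0 in RS, miR-454-3p from 426 in Ctrl to 205 in RS, and miR-130b-3p from 181 at DDR-Sen D0 to 47.6 at DDR-Sen D16. miR-148b-3p was highest at PMD-Sen D16 (677 CPM) and lowest in RS (295). miR-152-3p was highest at DDR-Sen D16 (1441), followed by PMD-Sen D16 (1374), and lowest at PMD-Sen D2 (779). miR-130a-3p was highest in RS (151.9) and lowest at DDR-Sen D4 (43.5). Neighbouring conditions in these orders mostly could not be separated. Their replicates overlapped in 14 to 17 of the 17 neighbouring pairs, and in all 17 for miR-454-3p and miR-130a-3p.

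The counted balance of the families varied between libraries and conditions. The summed CPM of the miR-148/miR-152 members was 1.90 and 2.37 times that of the miR-130/miR-301/miR-454 3p members in Ctrl. It was 4.13 and 4.41 times at D16 of PMD-Sen, 4.40 and 5.17 times at D16 of DDR-Sen and 3.48 and 3.32 times in RS. Every one of these libraries lay above both Ctrl libraries. The same held for both libraries at D4 (2.61 and 2.80), D6 and D8 of PMD-Sen. In DDR-Sen it held from D1 (3.20 and 2.635) to D8, so it was not particular to D16 and RS. Over all libraries the ratio ran from 1.64, in PMD-Sen D0 replicate 1, to 5.17. Replicates could lie far apart, with 4.16 in PMD-Sen D0 replicate 2, and with 4.29 and 2.755 at D8 of PMD-Sen. The ratio does not depend on the scaling between libraries, and it was not tested.

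Within the families the make-up also varied, and it was not tested. miR-454-3p held 41.0% to 81.0% of the miR-130/miR-301/miR-454 counts, and miR-152-3p held 61.6% to 85.7% of those of miR-148/miR-152. In RS miR-130a-3p held a mean of 31.4% of its family, compared with 12.0% in Ctrl. These are shares of reads, and adapter ligation can favour some sequences over others, so they compare conditions rather than give molecules.

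**Figure D4:**
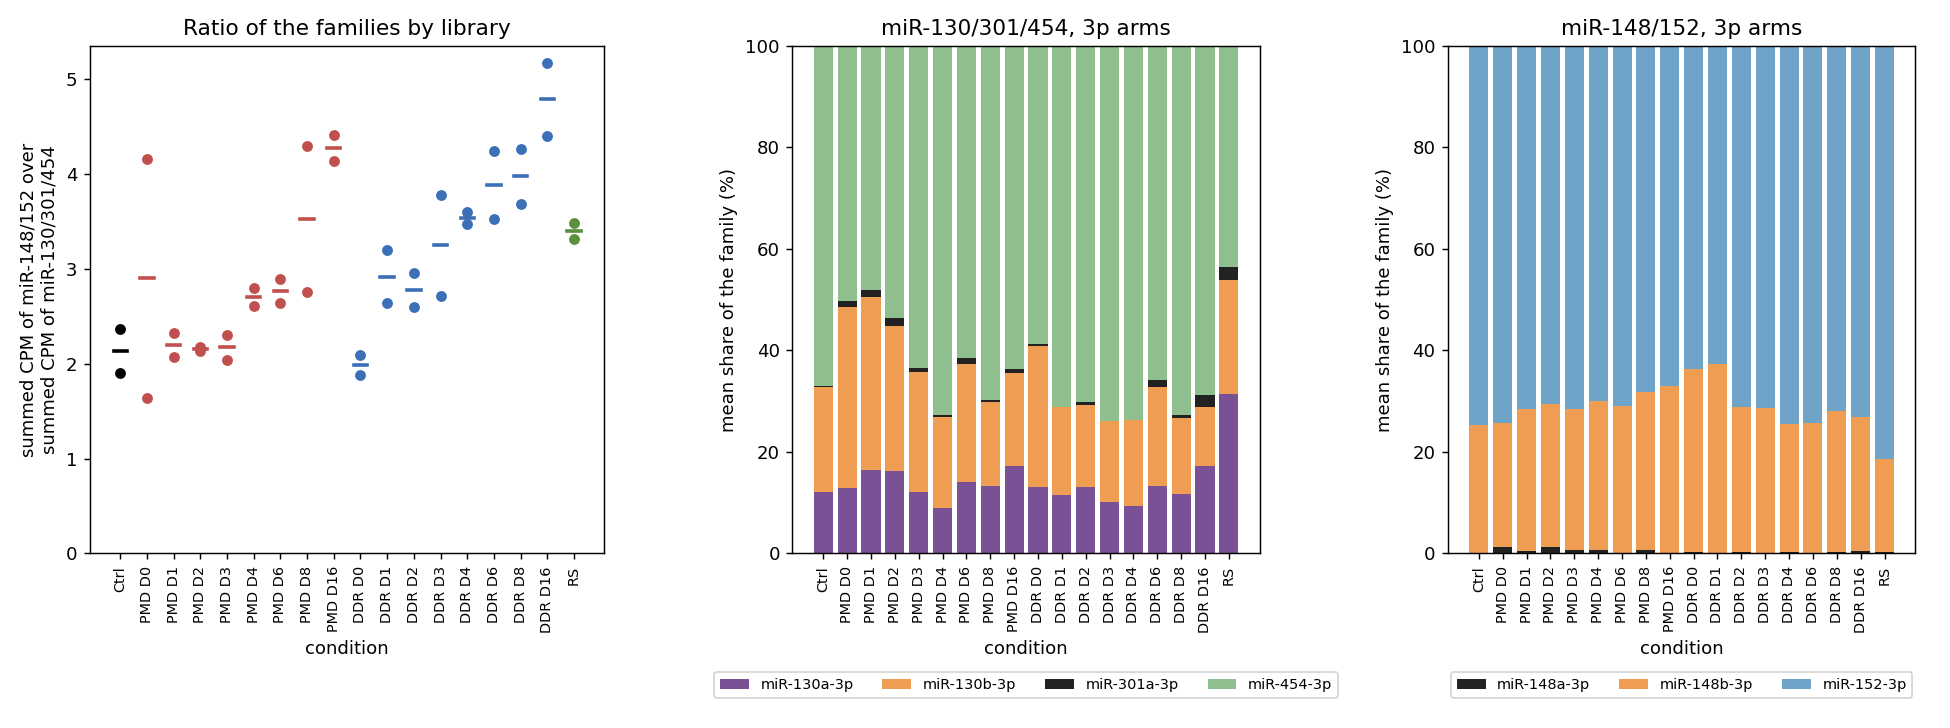
Left, the summed CPM of miR-148/miR-152 over that of the miR-130/miR-301/miR-454 3p members in each library (points, with a line at the mean of 2). Middle and right, the mean share of each member in its family's summed CPM (%). The ratio reaches 5.17 in 1 library of DDR-Sen D16, and miR-130a-3p takes its largest mean share, 31.4%, in RS.

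Across the 18 condition means of log2 CPM, the members of a family did not share 1 course. Pearson's r was 0.50 between miR-148b-3p and miR-152-3p, -0.12 between miR-130b-3p and miR-454-3p, 0.39 between miR-130a-3p and miR-130b-3p, and 0.49 between the strands of miR-130b. Between the families, miR-130b-3p and miR-152-3p had an r of -0.78. The tested miRNA outside the families that was most like each member was miR-155-5p for miR-130b-5p (r = 0.90), miR-221-5p for miR-454-3p (0.87), miR-26a-5p for miR-152-3p (0.86), miR-24-3p for miR-130a-3p (0.79), miR-744-5p for miR-130b-3p (0.79) and miR-369-3p for miR-148b-3p (0.77). These are descriptions over 18 condition means of 2 libraries each. Each miRNA named from outside was picked for the highest r among all tested miRNAs outside the families.

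Other miRNAs known to repress DNA methyltransferases were set beside miR-148/miR-152. Of 9 such miRNAs, all tested, 1 passed at D16 of PMD-Sen and it was higher, 1 was higher and 1 lower at D16 of DDR-Sen, and 2 were higher in RS. Of all tested miRNAs 16.7%, 23.1% and 22.5% passed in these comparisons, so the shares of the list were no higher. The higher one at D16 was miR-126-3p, also the endothelial marker, with log2 fold changes of 1.56 (SE 0.42) in PMD-Sen and 1.64 (SE 0.42) in DDR-Sen, and it was higher in RS too (1.85, SE 0.42). miR-185-5p was the other one in RS (1.01, SE 0.23). miR-143-3p was lower at D16 of DDR-Sen (-1.02, SE 0.37, adjusted p = 0.0467). At D16 the list had a median log2 fold change of 0.61 in PMD-Sen and 0.42 in DDR-Sen, beside 0.05 and -0.03 over all tested miRNAs, and that of the 2 tested miR-148/miR-152 members was 0.71 and 0.54. In RS the medians were 0.21 for the list, 0.12 over all tested miRNAs and 0.063 for the miR-148/miR-152 members. In the late against early comparison of PMD-Sen, 2 of the 9 passed, beside 30.8% of all tested miRNAs, and both rose, miR-143-3p (0.71, adjusted p = 0.0385) and miR-101-3p (0.99, adjusted p = 0.0385). In that of DDR-Sen 1 of 9 passed, beside 17.5%, and it was miR-143-3p, which fell (-0.99, adjusted p = 0.00867). The medians of the list there were 0.13 and -0.06.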

How the data were processed

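Small RNA libraries were made from 100 ng of total RNA (NEXTFLEX Small RNA-Seq Kit v3) and sequenced on a MiSeq. The authors trimmed, aligned (GRCh38, miRBase) and counted the reads with exceRpt, and deposited expected counts per mature miRNA, not normalized. All 288 values of the members were whole. No molecular identifiers are described, so depths and limits cover counting error only. The labels call the replicates biological, and nothing says that they came from separate cultures, so p-values measure the spread between these samples.

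Counts were rounded and fitted in edgeR 4.0.16 (R 4.3.3), with TMM scaling (factors 0.858 to 1.12), filterByExpr (360 of 1508 miRNAs kept, at least 99.8% of each library) and 1 quasi-likelihood model over all 36 libraries (18 residual degrees of freedom, biological coefficient of variation 20.9%). Calls needed a Benjamini-Hochberg adjusted p under 0.05 over the 360. Standard errors came from the same model. CPM used TMM-scaled totals, and log2 CPM a prior count of 2. The scripts were tested on simulated data. DESeq2 1.42.0, other scalings, filters, thinning, a replicate block and leaving out each library were tried. Named miRNAs were the members, those of fixed context lists, and for each member the tested non-member with the highest Pearson r over condition means. The members and lists were chosen with earlier results of these data known.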

Additional observations from a re-analysis of the deposited data

Results flagged for a closer look

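Because each condition has 2 libraries, no library was examined as an outlier within its group. Members whose level differed between the inducers by a test of the difference itself were miR-130b-3p, higher in PMD-Sen over D1 to D16 by 0.61 on the log2 scale (SE 0.14, edgeR adjusted p = 0.00188), and miR-152-3p, with a difference of -0.27 (SE 0.08, adjusted p = 0.0140). The first was higher in PMD-Sen on 7 of 7 days and the second lower on 7 of 7 days. These day counts restate the values that the test averaged. miR-130a-3p, which did not pass (edgeR adjusted p = 0.276), was also higher in PMD-Sen on 7 of 7 days.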

How the results depend on the processing

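The 8 counts of called members and 48 member log2 fold changes were recomputed under each alternative. The count against Ctrl over D0 to D16 of PMD-Sen (2) became 1 with DESeq2 size factors, total counts, no filter or a minimum mean of 10 counts. It became 0 with the thresholds of the study or thinning. With the Wald test of DESeq2 it rose to 3, by miR-130b-5p at D8. That of DDR-Sen (2) became 1 with no filter or thinning and 5 with only the libraries of the comparison. It rose to 3 with the Wald test of DESeq2 or the study's thresholds, in both by miR-130b-3p at D8. That of RS (2) became 1 with no filter, thinning or only the libraries of the comparison. The PMD-Sen count stayed at 2 with only the compared libraries, but as miR-148b-3p at D8 and at D16. Late against early, the count of PMD-Sen (3) became 2 with no filter or thinning and 0 with the study's thresholds. That of DDR-Sen (1) became 0 with no filter, the study's thresholds or thinning, 2 with total counts or only the compared libraries, and 3 with D6 to D16 against D0 to D2. For the difference of the changes (0), 1 passed with no filter, DESeq2 or only the compared libraries. Over D1 to D16 (2), 1 passed with total counts or no filter, and 0 with the study's thresholds or thinning. The thinned values are medians over 25 draws to 81670 counts on the same miRNAs. Thinning both lowers the counts and makes the totals equal, and these cannot be told apart there. The cause of the changed counts was not tested.

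Directions turned with total counts for miR-148b-3p late against early in DDR-Sen (0.0464) and miR-454-3p over D1 to D16 (0.0846). That scaling moved the median of all tested miRNAs by 0.17 over D1 to D16, -0.12 for the difference of the changes and -0.10 in RS. The difference of the changes turned for miR-130a-3p with no filter (0.15), and with D6 to D16 against D0 to D2 for miR-130a-3p (0.18), miR-130b-3p (0.0249) and miR-152-3p (-0.0115). None of the turned values had been called.

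Without 1 library at a time the counts ran from 0 to 2 (PMD-Sen against Ctrl), 1 to 2 (DDR-Sen against Ctrl), 1 to 2 (RS), 0 to 1 (late against early, DDR-Sen), 0 to 2 (difference) and 1 to 2 (D1 to D16). Log2 fold changes that crossed 0 ran for miR-130a-3p from -0.37 to 0.53 (PMD-Sen D16), -0.19 to 0.0091 (DDR-Sen D16), -0.56 to 0.16 and -0.34 to 0.056 (late against early, PMD-Sen and DDR-Sen), -0.43 to 0.31 (their difference) and -0.26 to 0.64 (D16 of both series). They ran in RS from -0.77 to 0.055 for miR-130b-3p, -0.77 to 0.098 for miR-148b-3p and -0.094 to 0.58 for miR-152-3p, from -0.15 to 0.029 for miR-148b-3p late against early in DDR-Sen, and between the series at D16 from -0.084 to 0.30 for miR-454-3p and -0.23 to 0.074 for miR-152-3p.

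The replicate number as a replicate block changed no count of called members (2 in PMD-Sen, 2 in DDR-Sen and 2 in RS against Ctrl) and no call. The numbers showed no pairing common to all conditions: deviations of same-numbered libraries correlated from -0.46 to 0.37 between conditions (median 0.04). The correlation was over 0.1 in 53 of 153 pairs, so this check does not settle whether some conditions were paired. Depth left miR-301a-3p and miR-148a-3p untested, and among the tested members miR-130a-3p had as few as 4 counts in a library.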

Other observations

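The strands opposite the guides were counted rarely. miR-454-5p was counted 79 times over the 36 libraries, miR-152-5p 78 times, miR-148b-5p 48 times and miR-301a-5p 23 times, compared with 3326 counts of miR-130b-5p and 1546 of miR-130b-3p. So miR-130b was the member whose 5p strand outnumbered its 3p strand. miR-301b-3p, which has the seed of the miR-130/miR-301/miR-454 family and lies 245 bases from MIR130B, was counted 17 times, with 0 counts in 28 libraries.

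The replicates of PMD-Sen D0, the shallowest libraries (104436 and 81670 counts), differed in opposite directions for members of both families. miR-148b-3p measured 147 and 524 CPM there (16 and 47 counts), and miR-454-3p 413 and 145 CPM (45 and 13 counts). The ratio of the families was accordingly 1.64 and 4.16. No result of D0 passed the test, and neither library enters the late against early comparison.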
